A study of Sus scrofa with 61 samples.

Results

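Integrin and laminin chains were followed in the longissimus muscle of pig fetuses through the last weeks of gestation. A chain was included where a probe of the array carried a gene name of the form ITGA, ITGB, LAMA, LAMB or LAMC with its number or letter, in the scanner files or in the gene lists of the study. The probe also had to be well above background, by the mark of the scanner software, on at least 80% of the arrays of 1 group. The array held 63 such probes for 28 gene symbols, of which 49 probes for 20 genes passed, among 10381 genes with a symbol and a kept probe. These 20 genes were 8 integrin alpha chains, 6 integrin beta chains and 6 laminin chains.

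Muscle RNA of 61 fetuses was measured at day 90 or day 110 of gestation, each fetus on an array of its own. Purebred Large White (LW) fetuses, from a LW sow and a LW boar, numbered 8 at day 90 and 9 at day 110, and purebred Meishan (MS) fetuses, from a MS sow and a MS boar, 8 and 7. In the crosses the breed of the boar is named first: LWMS fetuses were carried by MS sows (8 and 8) and MSLW fetuses by LW sows (8 and 5). No fetus was treated. Sows were inseminated with mixed semen, so purebred and crossed fetuses were littermates, and because the sow of a fetus is not in the labels, the p-values take littermates as separate fetuses.

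Integrins are receptors of the cell surface made of an alpha and a beta chain. They tie the cytoskeleton to collagens, laminins, fibronectin and other matrix proteins, and in leukocytes to other cells. Laminins are secreted trimers of an alpha, a beta and a gamma chain and form the sheet of the basement membrane that wraps muscle fibres, capillaries and nerves. In muscle, integrins of the beta 1 group and the dystrophin complex hold the fibre to laminin, and loss of the laminin alpha 2 chain causes a congenital muscular dystrophy. ITGA7, the partner of beta 1 in mature fibres, was not analysed here.

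The probes are 60-base oligonucleotides, and their first 30 bases are given for the chains on which the results turn. They are shown 5′ to 3′ in lower case, with no base singled out, so that each measurement can be traced to its transcript. ITGA2 and ITGA6 had large falls with age, and ITGA4, ITGA9, LAMA4 and LAMC1 were the chains whose fall differed between the breeds.
ITGA2: aggggtggtggtggggaaccatttaaaatg
ITGA6: cagcaaggtgtagcagctacttttactaaa
ITGA4: gggccttgataaacatcaaccatttattca
ITGA9: gtgtggtcaaccctcaggggaaaactgtta
LAMA4: atgttcacatgaaaaatgggcaggtcatag
LAMC1: tgatagcattgagatggtggccacacgagt
For ITGB3, the probe with the highest signal and a second probe gave different answers, and both are shown.
ITGB3 brightest probe: tgggttaaggatccagtgttgccgtgagct
ITGB3 second probe: gatgttctccaatatcacctttctcaatga
The LAMC1 probe is listed by the study under LAMB2, but its description on the array names the laminin gamma 1 chain, so it was placed under LAMC1.

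The scanner marked 34346 to 45683 probes per array as well above background, the fewest in a MS fetus of day 90. The arrays were spread over 8 slides that each held most of the 8 groups. All 6 muscle fibre markers of a list (CKM, ACTA1, TTN, DES, MYLPF, TNNT3) passed the filter with a summed log2 level of 20.64 to 20.93 over the 8 groups. Levels below are log2 normalized signals of the main probe, which is the probe of a gene with the highest mean. They can be compared between fetuses for a gene but not between genes. Of the 20 genes, 19 had a main probe that passed in all 8 groups. ITGAL passed only through groups where it was high. ITGB7, the nearest of the 8 genes left out, reached 62.5%. The other genes left out were ITGA8, ITGA11, ITGAD, ITGAE, ITGB4, LAMA1 and LAMB3.

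Between day 90 and day 110, most integrin chains fell, and laminin chains went both ways. Averaged over the genotypes, 14 of the 20 genes were lower at day 110 and 2 were higher, at an adjusted p below 1% over all 42436 kept probes. Among the 14, and among the alpha chains that fell, is ITGAL, which passed the filter only through groups where it was high. Its fall is a description. Of all kept probes, 35% were lower and 37.3% higher. The median log2 difference was -0.64 over the 20 genes and 0.04 over all probes. Among integrin alpha chains 7 of 8 fell, among beta chains 4 of 6 fell and 1 rose, and among laminins 3 of 6 fell and 1 rose. In bulk tissue, fewer cells of a type cannot be told apart from less RNA per cell.

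The count differed by genotype as follows. In LW, 9 genes fell and limma called 0 higher, against 23.5% and 21.8% of all probes. No main probe was higher in LW at an unadjusted p below 5%, and the fit without moderation also called 0, but a second ITGB6 probe was called (0.48 ± 0.13, adjusted p = 0.0018). In MS, 13 fell and 2 rose, against 28.1% and 28.6%. In LWMS, 13 fell and 1 rose, against 25.7% and 25.1%. In MSLW, 14 fell and 1 rose, against 23.8% and 20.8%. ITGA1, ITGA2, ITGA4, ITGA6, ITGAV, ITGB1, ITGB2, LAMA4 and LAMB1 fell in all 4 genotypes. ITGA9, ITGAL, ITGB5 and LAMC1 fell in MS and in both crosses, whose counts thus include ITGAL as a description only. For these 4 genes the difference in LW ranged from -0.35 (ITGAL) to -0.19 (ITGB5) and did not pass the test. With the slide as a block the main LAMC1 probe passed in LW as well (-0.22, adjusted p = 0.0081), and it was lower at day 110 in 7 of 7 slides. The 2 other LAMC1 probes had the opposite sign in LW (0.18 and 0.21) and did not pass. ITGB6 rose in MS and in both crosses, ITGB3 fell in MSLW and LAMA5 rose in MS. ITGA5, ITGB8, LAMA2 and LAMB2 passed in no genotype.

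**Figure D1:**
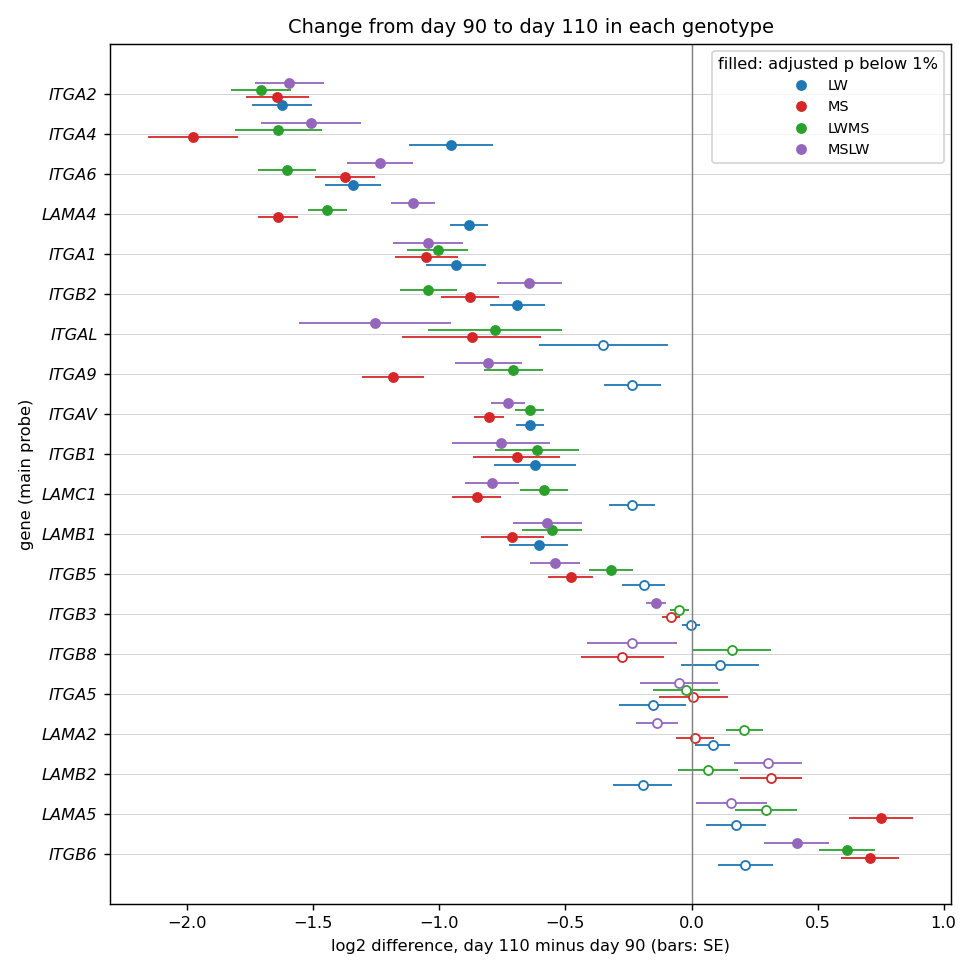
Log2 difference, day 110 minus day 90, of the main probe of each of the 20 genes (rows, ordered by the mean over genotypes) in LW, MS, LWMS and MSLW fetuses, with SE bars. Filled points passed the test at an adjusted p below 1%. All integrin alpha chains but ITGA5, which lies near 0, and LAMA4 lie to the left of 0, and ITGB6 (0.21 to 0.71) and LAMA5 (0.16 to 0.75) lie to the right.

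ITGA2, the alpha chain of a collagen receptor of the beta 1 group, had the largest mean fall. Its level was between 6.67 and 7.59 at day 90 (median 7.15, 32 fetuses) and between 4.95 and 5.98 at day 110 (median 5.54, 29 fetuses). All 32 fetuses of day 90 lay above all 29 of day 110. The 5 MSLW fetuses of day 110 had 5.80, 5.48, 5.71, 5.62 and 5.12. The mean log2 difference was -1.64 ± 0.06 (SE; adjusted p = 1.5e-31), which is 3.12-fold lower. By genotype it was smallest in MSLW (-1.59) and largest in LWMS (-1.71), with LW at -1.62 and MS at -1.64. A second, dimmer ITGA2 probe was well above background on 32 of 32 arrays of day 90 and on 2 of 29 arrays of day 110.

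ITGA6, the alpha chain of a laminin receptor, ranged from 7.72 to 8.44 at day 90 (median 8.00) and from 5.91 to 7.36 at day 110 (median 6.62). The days did not overlap. Its mean log2 difference was -1.39 ± 0.06 (SE; adjusted p = 3.3e-29), or 2.62-fold lower. ITGA1, whose product joins beta 1 in another collagen receptor, ranged from 6.71 to 7.47 (median 7.07) at day 90 and from 5.41 to 6.66 (median 6.17) at day 110, again without overlap. It was 2.01-fold lower (-1.01 ± 0.06 on the log2 scale, adjusted p = 1.5e-21), and its difference stayed between -1.05 and -0.94 over the genotypes. For these 3 chains, the age change of MS less that of LW was -0.12 ± 0.17 (ITGA1), -0.02 ± 0.17 (ITGA2) and -0.03 ± 0.16 (ITGA6) on the log2 scale (SE), and none passed the test.

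**Figure D2:**
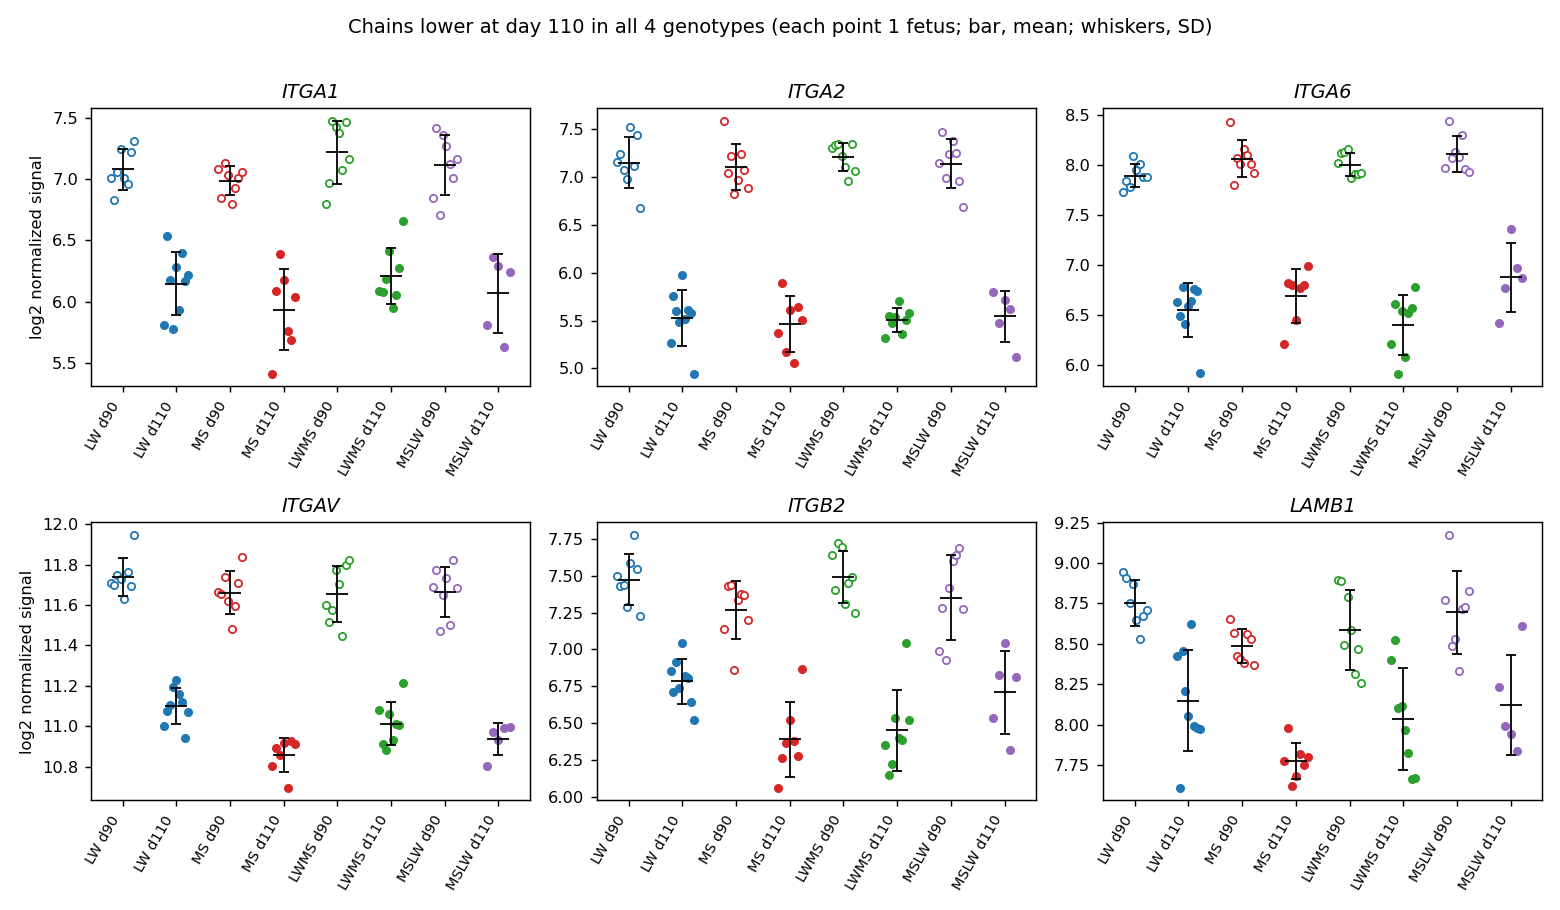
Log2 normalized signal of the main probe of ITGA1, ITGA2, ITGA6, ITGAV, ITGB2 and LAMB1 in every fetus, by genotype and day (d90 open, d110 filled), with group mean and SD. For ITGA2 every fetus of day 110 lies below 5.98 and every fetus of day 90 above 6.67.

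ITGAV, the shared alpha chain of the receptors for vitronectin and related ligands, fell by a small and even amount. It ranged from 11.45 to 11.95 at day 90 (median 11.70) and from 10.70 to 11.23 at day 110 (median 10.99), with no overlap. The mean log2 difference was -0.70 ± 0.03 (SE; adjusted p = 2.8e-29), and all 6 kept ITGAV probes fell, by between 0.25 and 0.70 on the log2 scale. ITGA5, the alpha chain of the main fibronectin receptor, had no called change on its main probe (-0.05 ± 0.07). Its other 3 probes disagreed: 2 of them fell (-0.86 and -0.79) and the third had 0.06.

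The leukocyte chains ITGAL and ITGB2 together form a receptor of white blood cells. ITGB2 ranged from 6.86 to 7.78 at day 90 (median 7.42) and from 6.06 to 7.05 at day 110 (median 6.53), and the days overlapped at their edges. It was 1.76-fold lower on average (-0.81 ± 0.06 on the log2 scale, adjusted p = 5.7e-19). ITGAL was dim, with 31 of 32 arrays of day 90 and 21 of 29 of day 110 well above background. Its mean log2 difference was -0.81 ± 0.14 (SE), and because it passed the filter only through the groups where it was high, this is a description. Its call in LWMS (-0.78) was lost under 7 of 15 alternatives, with -0.22 for the median signal, -0.20 for the deposited values and -0.17 for normexp. Of the leukocyte markers tested, AIF1, CSF1R and CD14 fell on average (-1.31, -0.71 and -0.27 on the log2 scale), and PTPRC, the pan-leukocyte marker, had 0.07. CD68, which was dim, was not called. Its mean level went from 3.80 to 4.20 in LW, 4.48 to 4.46 in MS, 4.28 to 4.19 in LWMS and 4.46 to 4.08 in MSLW. The summed log2 level of the 5 leukocyte markers was 12.11 to 12.74 over the groups of day 90 and 11.74 to 12.52 over those of day 110. CD3E was not well above background in enough arrays. The part of leukocytes in the ITGB2 and ITGAL results was not tested.

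ITGB1, the beta chain that most integrin alpha chains of muscle share, was measured by 8 probes, all of which fell. Their mean log2 differences ran from -0.77 to -0.39. The main probe ranged from 13.74 to 14.90 at day 90 (median 14.52) and from 13.00 to 14.25 at day 110 (median 13.86), with overlap, and it fell by 0.67 ± 0.09 on the log2 scale (adjusted p = 7.2e-10). With arrays scaled to their 75th percentile it kept its direction but passed in no genotype (adjusted p between 0.10 and 0.42). In MSLW the call was also lost without replicate 5 of day 110 (-0.60, adjusted p = 0.010). Several ITGB1 probes share between 44 and 60 bases, so they are not independent of each other.

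The beta chains that pair with alpha V went separate ways. ITGB6, known from epithelia and from the activation of TGF-beta, rose: it ranged from 10.48 to 11.17 at day 90 (median 10.83) and from 10.77 to 11.84 at day 110 (median 11.33). The rise was 0.49 ± 0.06 on the log2 scale (adjusted p = 5.3e-11), and a second ITGB6 probe rose by 0.77, with calls in all 4 genotypes. The call of ITGB6 in MSLW was lost without MSLW replicate 2 (0.40, adjusted p = 0.014) or 4 (0.34, adjusted p = 0.032) of day 110. ITGB5 had -0.38 ± 0.05 on its main probe, which passed (adjusted p = 3.7e-11), but its 2 other probes had 0.03 and 0.15 and with 75th percentile scaling the main probe had -0.01. ITGB8 had -0.06 ± 0.08, and of its other probes 1 rose (0.35) and 1 had 0.04.

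ITGB3 depended on the probe. Its main probe lay at 18.71 to 19.01 in all fetuses, near the top of the signal range, and moved by -0.07 ± 0.02 on the log2 scale. Its mean of 18.92 had rank 4 among all probes, where the 2 other ITGB3 probes had means of 9.77 and 6.98. Many fetuses shared the same few values, such as 18.85, 18.93 and 18.96. Whether the main probe reports the same transcript as the others was not tested. That value passed the test (adjusted p = 0.0011) but became 0.40 with arrays scaled to their 75th percentile. It was -0.000345 with the median signal, -0.000403 with the deposited values and 0.0017 with normexp, none of which passed, and under these 3 settings the call in MSLW was lost too (adjusted p between 0.86 and 0.87). ITGB3 is thus counted among the genes that fell by a call that the settings do not share. Its call in MSLW was also lost without 1 MSLW fetus of day 110 (replicate 2; -0.12, adjusted p = 0.024). The other 2 probes fell by 1.09 ± 0.08 (adjusted p = 4.8e-18) and 1.25 ± 0.09 (adjusted p = 1.1e-18). The mean of the 3 probes fell in every genotype, from -1.07 in MS to -0.55 in LW.

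**Figure D3:**
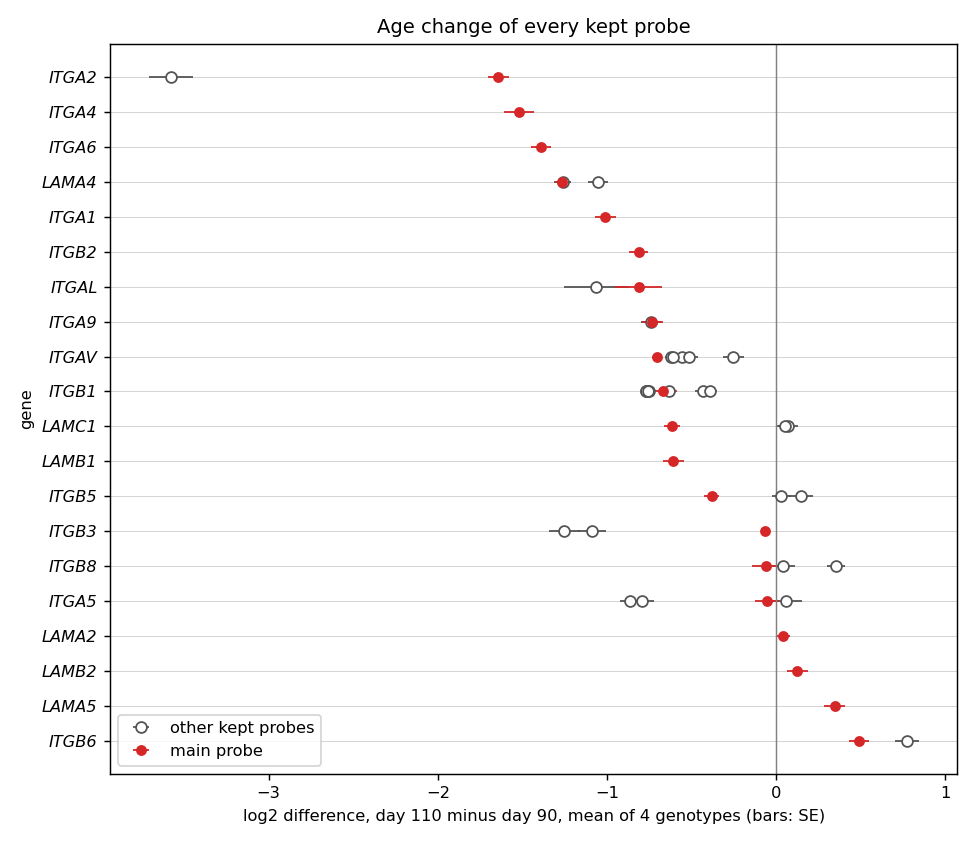
Log2 difference, day 110 minus day 90, averaged over the 4 genotypes, of every kept probe of each gene with SE bars (red, main probe; open, other probes). The 6 ITGAV, 8 ITGB1 and 3 LAMA4 probes all lie left of 0, and the other probes of LAMC1 and ITGB5 lie near 0 while those of ITGB3 lie far left of the main probe.

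Of the 12 genes with several kept probes, all probes fell for 7 (with ITGAL among them as a description) and all rose for ITGB6. The 4 genes with mixed probes were ITGA5, ITGB5, ITGB8 and LAMC1. The 2 ITGA9 probes have the same sequence of 60 bases and count as 1 measurement.

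Among laminins, LAMA4, the alpha chain of vessel walls and of the early muscle basement membrane, fell most. It ranged from 11.84 to 12.15 at day 90 (median 12.04) and from 10.16 to 11.39 at day 110 (median 10.77). The days did not overlap, and the mean log2 difference of -1.27 ± 0.04 (SE; adjusted p = 2.0e-35) is 2.41-fold lower. The 2 other LAMA4 probes fell by 1.26 and 1.05. LAMA2, the alpha chain of the laminin of mature fibres, had a mean difference of 0.04 ± 0.04, with levels of 10.21 to 10.78 at day 90 and 10.34 to 11.08 at day 110.

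LAMB1, the usual beta chain, ranged from 8.26 to 9.17 at day 90 (median 8.62) and from 7.61 to 8.62 at day 110 (median 7.98), and fell by 0.61 ± 0.06 on the log2 scale (adjusted p = 3.1e-13). LAMB2, the beta chain of the basement membrane at the nerve-muscle synapse, had 0.12 ± 0.06, which did not pass (adjusted p = 0.065), although with 75th percentile scaling it had 0.39 and passed (adjusted p = 7.1e-07). LAMA5 rose by 0.34 ± 0.06 on average (adjusted p = 3.0e-06), and of the genotypes MS passed (0.75 ± 0.13, adjusted p = 8.6e-07).

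LAMC1, the gamma chain of most laminins, had -0.62 ± 0.05 on its main probe (adjusted p = 2.4e-17), whereas its 2 other probes had 0.05 and 0.07 and did not pass.

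Whether the purebred fetuses differed was asked at each day. At day 110, several chains were lower in MS, whereas at day 90 no main probe passed. The MS fetuses of day 110 enter both this comparison and the age comparison of MS. At day 90, none of the 20 genes passed the limma test of MS against LW, against 12.8% of all probes. An unadjusted p below 5% was found for 4, with no share of all probes at that threshold to set beside it. The fit without moderation also called 0. The log2 difference at day 90 lay between -0.49 (ITGAL) and 0.26 (ITGB5). At day 110, 7 genes were lower and 1 was higher in MS, against 15.2% and 13.7% of all probes. The median log2 difference was -0.19 over the 20 genes and 0.01 over all probes.

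The 7 chains lower in MS at day 110 were ITGA4, ITGAL, ITGA9, LAMA4, LAMC1, ITGB2 and ITGAV, and LAMB2 was higher. ITGA4, whose receptor binds VCAM1 and fibronectin, had the largest difference, -1.39 ± 0.17 on the log2 scale (SE; adjusted p = 3.6e-09), or 2.62-fold lower. ITGA9, whose receptor binds tenascin-C and osteopontin, had -0.98 ± 0.12 (adjusted p = 1.6e-09), LAMA4 -0.74 ± 0.08 (adjusted p = 3.2e-11) and LAMC1 -0.68 ± 0.09 (adjusted p = 4.7e-08). ITGB2 had -0.39 ± 0.11 (adjusted p = 0.0043) and was not past the threshold with the median signal of the spot, the deposited values or normexp. ITGAV had -0.24 ± 0.06 (adjusted p = 0.00065). ITGAL had -1.02 ± 0.27, but it could be told from background in 9 of 9 LW and 3 of 7 MS fetuses and passed the filter only through groups where it was high, so its value is a description and leaves 6 chains.

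Within slides that held both breeds at day 110, MS lay below LW in 6 of 6 slides for ITGA4, ITGA9, ITGAV, LAMA4 and LAMC1, and in 5 of 6 for ITGB2. For LAMB2, MS lay above in 6 of 6. The main probes of ITGA1 and ITGB3, which were not called, also lay below in 6 of 6. The slides hold the same fetuses as the test, so these counts are no separate support. LAMB1 had -0.37 ± 0.12, which did not pass (adjusted p = 0.011), but it passed with the slide as a block (-0.43, adjusted p = 0.00072).

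LAMB2 levels at day 110 had a median of 12.30 and a highest value of 12.48 in LW, and a lowest, median and highest value of 12.50, 13.16 and 13.34 in MS. The breeds did not overlap, and the difference was 0.64 ± 0.12 (adjusted p = 2.0e-05). In LWMS the values were 12.31, 12.77 and 13.35, and the 5 MSLW fetuses had 13.00, 12.71, 12.75, 13.18 and 12.50. Both crosses thus reached into the range of MS.

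Probes other than the main probe added to this comparison. Of 49 probes, 19 were lower and 2 higher in MS at day 110, against 15.2% and 13.7% of all probes. Some of the 49 share bases with another probe of their gene, so the count repeats some measurements. It includes the main ITGAL probe as a description. The second ITGB6 probe was one of those higher (0.51 ± 0.14, adjusted p = 0.0022), where the main ITGB6 probe had 0.18 ± 0.11. Of the 7 other ITGB1 probes, 5 were lower in MS (-0.32 to -0.27), although the main ITGB1 probe had -0.01 ± 0.17. The 2 other ITGB3 probes were lower by 0.77 ± 0.16 (adjusted p = 8.9e-05) and 0.99 ± 0.18 (adjusted p = 8.9e-06). A second LAMC1 probe was lower (-0.38 ± 0.08, adjusted p = 0.00022) and the third had -0.04. An ITGAV probe that was lower in MS at day 110 by 0.61 was also lower at day 90, by 0.60 (adjusted p = 9.6e-06), unlike the main probe (-0.08 ± 0.06).

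**Figure D4:**
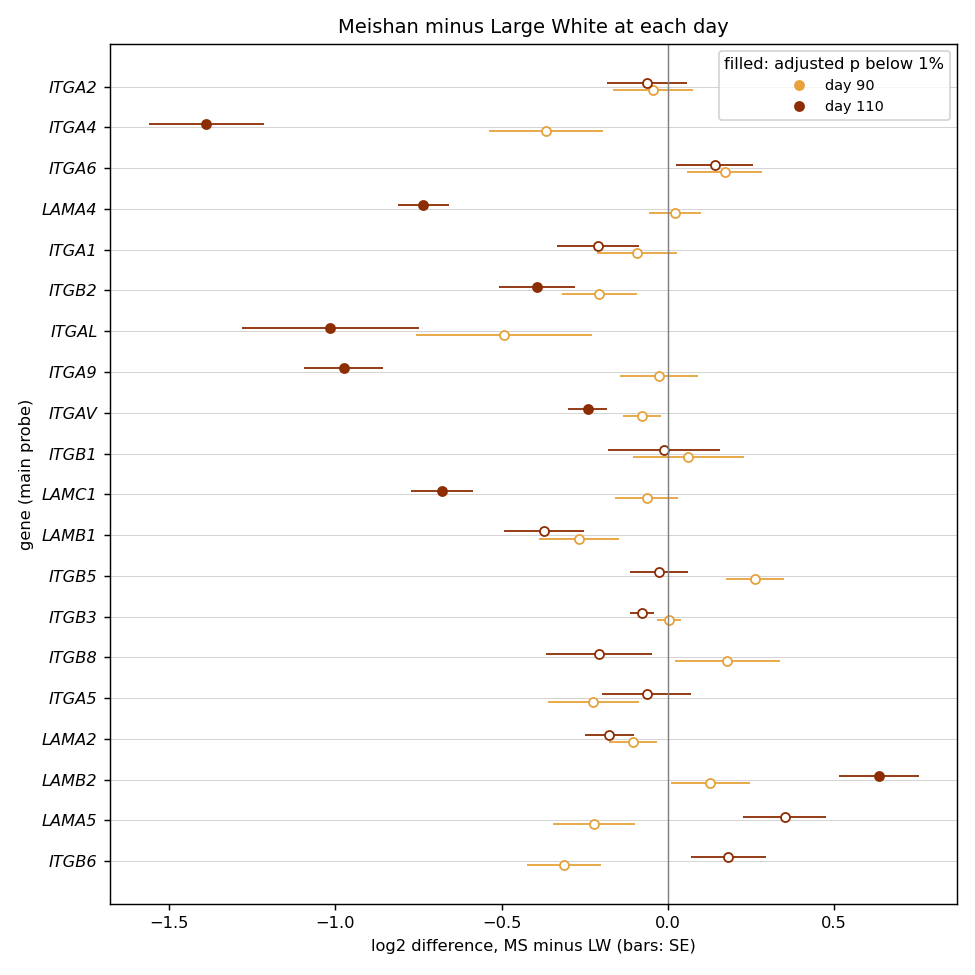
Log2 difference, MS minus LW, of the main probe of each gene at day 90 and at day 110, with SE bars and filled points where the adjusted p was below 1%. All day 90 points are open, and at day 110 ITGA4 (-1.39) lies farthest left and LAMB2 (0.64) farthest right.

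The fall with age was larger in MS than in LW for 4 chains. ITGA4, ITGA9, LAMA4 and LAMC1 passed the test of the difference in age change, all in the negative direction, against 3.39% of all probes in that direction and 2.56% in the other. limma called 0 genes in the other direction, where 3 had an unadjusted p below 5%, a count without a share of all probes beside it.

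LAMA4 had nearly the same level in all genotypes at day 90. The lowest, median and highest values were 11.85, 12.03 and 12.11 in LW, 11.92, 12.03 and 12.11 in MS, 11.91, 12.05 and 12.11 in LWMS and 11.84, 12.09 and 12.15 in MSLW. At day 110 they were 10.80, 11.14 and 11.39 in LW, 10.16, 10.46 and 10.58 in MS and 10.38, 10.51 and 11.01 in LWMS. The 5 MSLW fetuses had 10.82, 10.85, 11.34, 10.77 and 10.89. LW and MS did not overlap at day 110, and both crosses lay between their means. LW fetuses thus changed by -0.88 and MS fetuses by -1.64, and the difference was -0.76 ± 0.11 on the log2 scale (SE; adjusted p = 2.7e-06). The 2 other LAMA4 probes had -0.61 and -0.77 and passed as well.

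ITGA4 levels at day 90 had a lowest, median and highest value of 8.09, 8.34 and 8.71 in LW and 7.59, 7.98 and 8.30 in MS. At day 110 these were 6.64, 7.52 and 7.88 in LW and 5.57, 6.07 and 6.43 in MS. The breeds overlapped at day 90 and did not overlap at day 110. In LWMS the values were 7.65, 8.04 and 8.49 at day 90 and 5.80, 6.44 and 7.02 at day 110. MSLW fetuses had 7.57, 8.07 and 8.62 at day 90, and 6.02, 6.38, 7.33, 6.58 and 6.37 at day 110. LW fetuses changed by -0.95 and MS fetuses by -1.98, a difference of -1.02 ± 0.24 (adjusted p = 0.0032). With the median signal, the deposited values or normexp this difference was -0.70, -0.70 and -0.54 and did not pass (adjusted p up to 0.020).

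ITGA9 fell little in LW. Its lowest, median and highest values were 9.69, 9.89 and 9.96 at day 90 and 9.10, 9.58 and 10.18 at day 110 in LW. In MS they were 9.60, 9.84 and 10.01 at day 90 and 8.27, 8.63 and 9.13 at day 110. LW overlapped between the days and MS did not. LWMS fetuses had 9.04, 9.34 and 9.47 at day 110, and the 5 MSLW fetuses had 8.69, 9.08, 9.49, 8.49 and 9.27. The difference in age change was -0.95 ± 0.17 (adjusted p = 7.4e-05).

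LAMC1 had a lowest, median and highest value of 11.91, 12.18 and 12.34 in LW and 11.78, 12.14 and 12.39 in MS at day 90. At day 110 these were 11.38, 11.92 and 12.31 in LW and 10.88, 11.31 and 11.39 in MS. MS barely touched the lowest LW fetus at day 110. LWMS had 11.31, 11.56 and 11.77, and the MSLW fetuses had 11.54, 11.23, 11.49, 11.39 and 11.27. The difference in age change was -0.62 ± 0.13 (adjusted p = 0.0011), and the 2 other LAMC1 probes had -0.29 and -0.27 and did not pass.

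**Figure D5:**
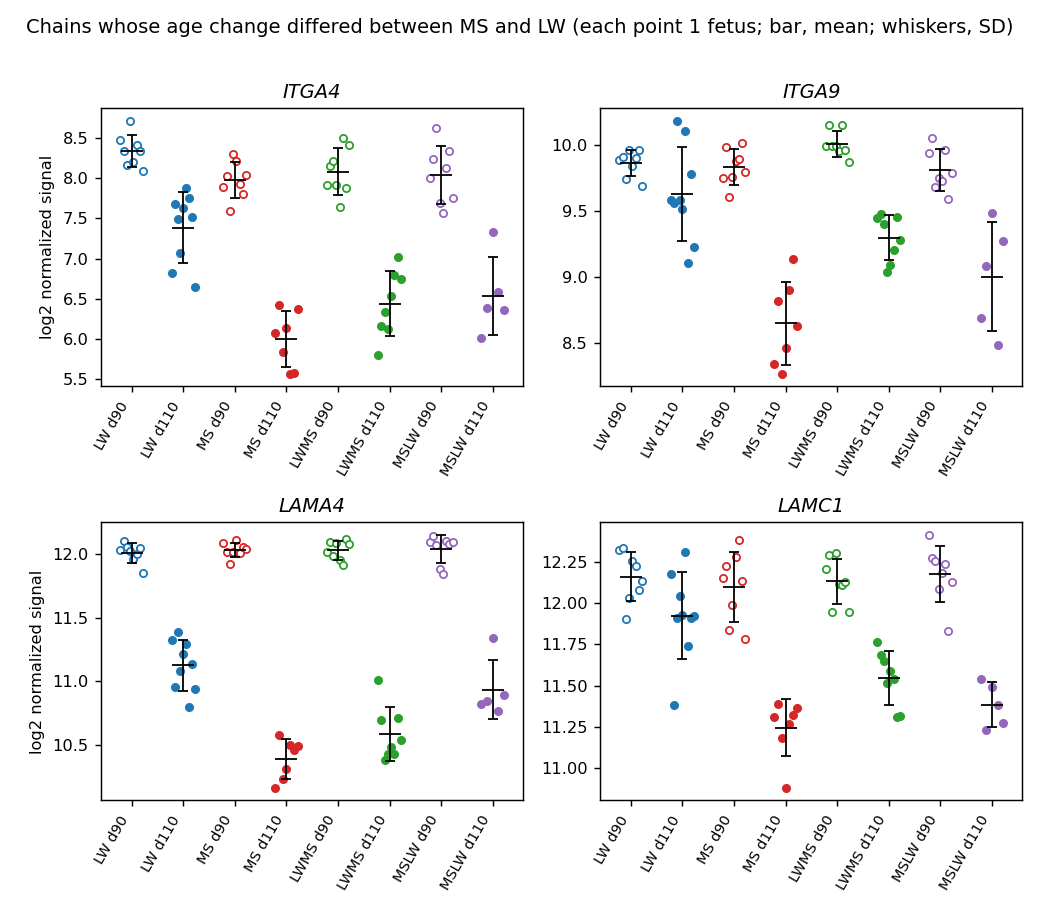
Log2 normalized signal of ITGA4, ITGA9, LAMA4 and LAMC1 in every fetus, by genotype and day (d90 open, d110 filled), with group mean and SD. For LAMA4 all groups of day 90 lie at 11.84 to 12.15, and at day 110 MS (10.16 to 10.58) lies below LW (10.80 to 11.39).

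Whether the breed of the sow or of the boar moved the age change was addressed in a model with age and both parental breeds, taken in pairs as interactions. LAMA4 was the 1 gene that passed for the maternal genotype, against 3.05% of all probes, with an interaction of -0.55 ± 0.08 on the log2 scale (SE; adjusted p = 7.0e-06). Its 2 other probes had -0.54 (adjusted p = 0.00021) and -0.50 (adjusted p = 0.0031). The second, dim ITGA2 probe was called as well (-1.03 ± 0.26, adjusted p = 0.0086). It was well above background on 2 of 29 arrays of day 110, so this value is a description only. The main ITGA2 probe had -0.07. The paternal interaction of LAMA4 was -0.21 ± 0.08 (adjusted p = 0.19), and the difference between the 2 interactions was not tested. The gestational day and the breed of the sow vary only between litters, whereas the breed of the boar varies within them. Leaving out the sow thus bears less on the paternal p-values than on the others. Those others are the p-values of age, of MS against LW, of the reciprocal crosses and of the maternal genotype. No main probe passed limma for the paternal genotype, against 0.462% of all probes, and the fit without moderation called 0. An unadjusted p below 5% was found for 10 genes, but the share of all probes at that threshold is not given, so no result is read from it. The smallest adjusted p were those of ITGA9 (-0.52 ± 0.12, adjusted p = 0.012) and LAMC1 (-0.41 ± 0.10, adjusted p = 0.018). The second probe of ITGA9, of the same sequence, passed (-0.55 ± 0.11, adjusted p = 0.0037). With the slide as a block, ITGA9 joined LAMA4 for the maternal genotype and LAMC1 passed for the paternal genotype. The main ITGA9 probe passed for the maternal genotype without MSLW replicate 1 (-0.47, adjusted p = 0.0087) or 4 (-0.49, adjusted p = 0.0044) of day 110, and for the paternal genotype without replicate 3 (-0.58, adjusted p = 0.0030) or 5 (-0.55, adjusted p = 0.0082).

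The reciprocal crosses were compared within each day. At day 90, none of the 20 genes passed limma, against 0.5% of all probes, none had an unadjusted p below 5%, and the fit without moderation called 0. At day 110, again none passed, against 0.912% of all probes, and the fit without moderation called 0. An unadjusted p below 5% was found for 6 genes, again with no share of all probes beside it. The second ITGA2 probe was called lower in LWMS (adjusted p = 0.0083), where it was not well above background, so its value is a bound only. Of the main probes LAMA4 came nearest, at -0.35 ± 0.09 in LWMS against MSLW (adjusted p = 0.017). It passed with the slide as a block (-0.37, adjusted p = 0.0082), and a LAMA4 level of 1 MSLW fetus, 11.34, stood apart from the other 4. ITGA6 had -0.48 ± 0.13 (adjusted p = 0.030), and it passed without 1 MSLW fetus (replicate 1; -0.59, adjusted p = 0.0072).

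The ligands and partners of these chains were read from 4 lists. Of 14 other integrin ligands tested, 11 were lower and 3 higher at day 110 on average over the genotypes, against 35% and 37.3% of all probes. THBS2, among those lower, was dim and did not pass the filter in every group, so its fall is a description. The 3 with the largest differences were POSTN (periostin, -3.59 on the log2 scale), TNC (tenascin-C, a ligand of the ITGA9 receptor, -3.05) and MADCAM1 (-2.79), and the risers were VTN (vitronectin, 0.98), CYR61 (0.94) and MFGE8 (0.83). FN1, fibronectin, had -2.29. Of these ligands, 6 were lower and 2 higher in MS fetuses of day 110, against 15.2% and 13.7% of all probes. TNC had -1.18 and POSTN -1.52. Of 8 basement membrane partners tested, 7 fell with age, led by COL15A1 (-1.77), COL18A1 (-1.68) and COL4A1 (-1.04), and 3 were lower in MS at day 110 (COL18A1, SPARC and COL4A1). For COL18A1, COL4A1 and SPARC, the age change itself was larger in MS than in LW, with differences of -0.72, -0.69 and -0.84 on the log2 scale that passed the test. Of all probes, 3.39% passed in that direction.

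Of 19 integrin adaptors and regulators tested, 9 fell and 6 rose with age, shares not far from the 35% and 37.3% of all probes. The largest differences were those of PARVG (-1.48), PARVB (parvin beta, 1.35) and CD9 (a tetraspanin, -1.31). PARVG was dim, with mean levels of 2.16 to 2.55 in the groups of day 110, and it was well above background on 0 arrays of at least 1 group. Its value is a description, also where it enters the counts. VCL, vinculin, fell by 0.82, and ILK, the integrin-linked kinase, had -0.09 and did not pass. Of the dystrophin complex, the other laminin receptor of the fibre, 9 of 14 genes rose and 3 fell: SGCE (-2.41), SNTB2 (-1.14) and UTRN (utrophin, -0.72). DTNB rose by 1.32, DMD (dystrophin) by 0.57 and DAG1 (dystroglycan) by 0.26. The median over the list was 0.29, that over the 20 chains -0.64 and that over all probes 0.04. These lists were chosen with earlier results of the data known.

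Markers of other cell types went different ways with age, and only the fibroblast markers all fell. Of all kept probes, 35% were lower and 37.3% higher with age. All 6 fibroblast markers fell with age on average (THY1 -3.00, COL1A2 -2.12, DCN -1.53), and their summed log2 level was 18.21 to 18.64 over the groups of day 90 and 16.05 to 17.39 over those of day 110, lowest in MS (16.05 to 16.38). In the age change of MS less that of LW, 4 of the 6 passed in the same direction as ITGA4, ITGA9, LAMA4 and LAMC1, against 3.39% of all probes. This was not particular to fibroblast markers: 3 of 6 smooth muscle and pericyte and 2 of 5 Schwann cell markers passed in that direction too. In the other direction 1 of 6 muscle fibre and 1 of 2 satellite cell markers passed, against 2.56% of all probes. Of 5 endothelial markers, CLDN5, CDH5 and PECAM1 fell with age (-1.53, -1.22 and -0.98), VWF rose (1.29) and TEK had 0.14. Their summed log2 level was 15.71 to 16.19 at day 90 and 14.47 to 15.31 at day 110. Of 6 smooth muscle and pericyte markers 3 fell and 2 rose, of 4 adipocyte markers 3 fell, and of 5 Schwann cell markers 3 rose. The summed level of muscle fibre markers was 20.64 to 20.81 at day 90 and 20.78 to 20.93 at day 110, with 4 of 6 called higher and 1 lower. The part of fibroblasts, vessels or other cells in the integrin and laminin results was not tested.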

How the data were processed

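Longissimus muscle RNA of 61 male fetuses was hybridised to 1-colour porcine arrays, 1 fetus per array. Per the file headers, the deposited spot intensities are Agilent Feature Extraction 10.10.1.1 output, background-corrected by that software. The authors also deposited a table of log2 values, quantile-normalized after quality control per their methods, used here as an alternative only. Its 44368 rows matched the median spot intensities by place in the scanner file (Spearman correlation at least 0.999998 per array). No column of the authors' own comparisons was used, and the submitters' processing notes name limma.

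Processed intensities, with spots marked non-uniform set to missing and spots of a probe averaged, were quantile-normalized and put on the log2 scale in R 4.3.3. The 42436 probes that the scanner marked as above background in 80% or more of a group's arrays were kept. Means of the 8 groups, and for parental effects a model of age and both parental breeds, were fitted with limma 3.58.1, with Benjamini-Hochberg adjustment over all kept probes at 1%. The study's model had the sow as a random effect, which the labels do not allow here. In each comparison up to 8 called genes a direction with the largest difference were to be named. The other members were named after their values were seen, to account for each. List genes are named where a count is at most 5 or among the 3 largest, and others as examples chosen after their values were seen. 1 member is not reported here. The members and lists were chosen with earlier results of these data known.

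The alternatives were the median signal, the deposited values, normexp background correction (offset 50), 75th percentile scaling, other filters on dim probes, use of the non-uniform spots, a block for the slide, the mean of the probes of a gene, no moderation, LW and MS fetuses alone, and leaving out each of the 5 MSLW fetuses of day 110. Leaving out the array with the fewest probes above background was added after seeing the data. The fit was tested on simulated data. The number of arrays limits the precision. Reference sequence was not used here, so no coordinates are given.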

Additional observations from a re-analysis of the deposited data

Results flagged for a closer look

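In 11 of 160 sets of a gene and a group, the highest or lowest fetus stood apart from the others of its group. Chance alone flags about 1 in 20 such sets. Levels are log2 normalized signals of the main probe.

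Of the alpha chains, ITGA6 had a lowest value of 5.91 in LW at day 110, with the next fetus at 6.40. ITGAL had a lowest value of 3.04 in MS and of 1.65 in LWMS at day 110, where the next fetuses had 3.94 and 3.93. ITGAV had a highest value of 11.95 in LW at day 90, against 11.76 for the next.

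Of the beta chains, ITGB2 had a highest value of 7.04 in LWMS at day 110, with the next at 6.53, in the same fetus (replicate 7) that had the lowest ITGAL value. ITGB3 had a lowest value of 18.85 in LW at day 110, a highest of 19.01 in MS at day 90 and a lowest of 18.71 in LWMS at day 90. The main ITGB3 probe takes few distinct values near the top of the signal range. ITGB5 had a lowest value of 13.28 in LWMS at day 110, against 13.45 for the next.

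Of the laminins, LAMA4 had a highest value of 11.34 in MSLW at day 110, with the next at 10.89. LAMC1 had a lowest value of 10.88 in MS at day 110, against 11.18.

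The change with age differed between the purebred genotypes, by the limma test of that difference, in 4 of 20 genes, against 5.95% of all probes. MS less LW was -0.76 on the log2 scale for LAMA4, -0.62 for LAMC1, -1.02 for ITGA4 and -0.95 for ITGA9. The ITGA4 call was lost with the median signal, the deposited values and normexp, and the 2 other LAMC1 probes did not pass.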

How the results depend on the processing

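Over 240 gene results and 17 alternatives, 3916 values were computed, of which 9 reversed, 35 lost and 44 gained a call; the causes were not tested. All 9 reversals were of ITGB3 or ITGB5. With 75th percentile scaling, under which the median probe changed by 0.12 with age in MS, against 0.03, ITGB3 had 0.27 in LW, 0.54 in MS, 0.41 in LWMS, 0.37 in MSLW, 0.40 on average and 0.26 for MS less LW at day 110, and ITGB5 had 0.044 in LWMS and 0.0037 in MS. With normexp the average ITGB3 age change was 0.0017. The count of genes higher with age under 75th percentile scaling was 1 in LW, 4 in MS, 3 in LWMS, 3 in MSLW and 4 on average, against 0, 2, 1, 1 and 2, with 2 higher in MS at day 110 and 2 with a larger age change in MS. Of all calls, the share higher at day 110 was greater with this scaling (17321 of 30529 against 15827 of 30664 on average). With probes above background on all arrays, the count higher was 1 in MS and 1 on average. In LWMS, 2 genes were higher, against 1, with that filter, the median signal, the deposited values, normexp, the slide block and no moderation. For the paternal genotype, 1 gene passed, against 0, with the median signal, the deposited values, normexp, 75th percentile scaling, the stricter filter, the slide as a block and the mean of probes. For the maternal genotype 2 passed, against 1, with normexp and the slide block. With the slide block 1 gene was lower in LWMS against MSLW at day 110. With the mean of probes, 1 gene was higher with age in LW, 1 was lower in MS at day 90 and 2 were higher in MS at day 110. Without each MSLW fetus of day 110 in turn, the genes higher in MSLW numbered 0 to 1, those lower between the crosses at day 110 0 to 1, and those passing for the maternal and paternal genotypes 1 to 2 and 0 to 1. Without the array with the fewest probes, only ITGAL in MS lost its call (-0.81, adjusted p = 0.011). The labels carry no replicate numbers by which to pair fetuses, and the slide was the block fitted. The dim ITGAL probes are limited by their signal over background.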

Other observations

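PAX7, a marker of satellite cells that belongs to no comparison above, had a log2 difference of 0.96 with age on average and of 1.54 in MS against LW at day 110, both past the limma test. MYF5, the other satellite cell marker measured, had -0.29 and -0.02, which did not pass. It was dim, with mean levels of 4.15 to 4.89 over the groups, and was not well above background on every array.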
